A study of Mus musculus with 10 samples.

Results

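Cultured bone marrow stroma carrying a control vector was compared with freshly sorted Scf-GFP-positive cells, the kind of stroma it was grown from, by where chromatin was open. The comparison uses 5 of the 10 libraries of the series, 3 control and 2 Scf-GFP-positive, all chosen by their labels. The limma fits also held the remaining libraries of the series, which served only to estimate the spread. Scf-GFP-positive cells were CD45(-) Ter119(-) CD31(-) Scf-GFP(+) marrow cells that had not been cultured. Control stroma was seeded from cells of that sort in alpha-MEM with 20% fetal bovine serum, 10 ng/ml FGF-basic, penicillin, streptomycin and L-glutamine, and was transduced with a control vector. Both groups are of strain C57BL/6J. Serum, added FGF-basic, growth in a dish and transduction therefore changed together and cannot be told apart, and the labels do not give the time in culture. Nothing in the labels ties a replicate to its own animal or dish. Each p-value therefore covers the variation among these libraries alone, or for limma among those of the whole series. Part of that may be technical.

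Scf-GFP marks cells that make stem cell factor, encoded by Kitl, which blood stem cells need for their upkeep. In marrow these cells lie around the sinusoids, also make the chemokine Cxcl12, mostly carry the leptin receptor Lepr, and include the precursors of bone and fat cells. Stromal cells placed in a dish with serum spread and divide, and are known to take on features of activated fibroblasts. ATAC-seq cuts and tags accessible DNA with a transposase, and a peak is a stretch where tagged fragments pile up. Peaks at gene starts mark open promoters, and peaks farther away (distal sites) often mark enhancers, the switches that set which cells use a gene.

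The 5 libraries gave 47632 to 75354 deposited peaks on chromosomes 1 to 19 and X. List length was held equal by keeping, in every library, the 39912 peaks that ranked first by −log10 p. The weakest summit in these lists rested on 6 or 7 fragments, and the lowest −log10 q was 4.27 to 4.30 in Scf-GFP-positive and 4.62 to 5.13 in control lists. The background of the peak caller was 0.408 and 0.591 fragments in Scf-GFP-positive and 0.353, 0.297 and 0.296 in control libraries, so it moved with the groups, and its part in the results was not tested. The names of the deposited data carry flow cell codes, AHY33MBCXX for replicate 1 of each group and AC99CPACXX for the others, while the labels name no flow cell. Read totals were not used here, so a site missing from a list can be open but undetected. The promoter of Kitl, the gene the reporter follows, had a summit in all 5 lists and in neither list of Scf-GFP-negative cells, which were sorted by the same gate but lacked Scf-GFP. The same was true of Cxcl12, which was not used in the sort.

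Open sites lay farther from genes after culture. Summits within 1 kb of a protein-coding gene start made up 32.6% and 32.0% of the Scf-GFP-positive lists and 28.9%, 27.1% and 28.3% of the control lists. The groups did not overlap, with means of 32.3% ± 0.482 (SD, n = 2) and 28.1% ± 0.897 (SD, n = 3). The difference was -4.19 percentage points (exact two-sided permutation p = 0.2, the smallest that 2 against 3 libraries allow), and it was -3.75 and -4.24 points within the 2 flow cells. Summits over 50 kb from any start moved the other way, from 21.8% and 22.1% to 24.8%, 25.8% and 24.6%. Among distal summits, the median distance to a start was 24926 and 25344 bp in Scf-GFP-positive and 28678, 29187 and 28049 bp in control lists. Peaks near starts were also wider in fresh cells, with medians of 837 and 859 bp against 638, 741 and 791 bp, and peaks over 1000 bp made up 16.2% and 16.8% of the fresh lists against 7.01%, 10.8% and 12.4%. The median width over all peaks overlapped between the groups, at 467 and 510 bp against 418, 506 and 508 bp (difference -11.2 bp, exact permutation p = 0.8).

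**Figure D1:**
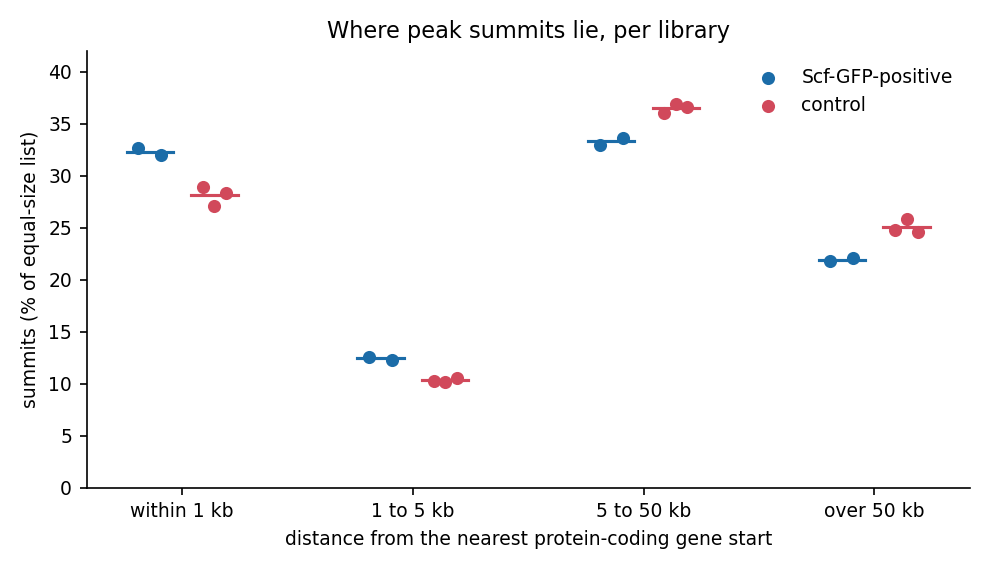
Share of peak summits (%, vertical axis) by distance from the nearest protein-coding gene start (horizontal axis), 1 point per library and a line at the group mean. In each of the 4 distance classes the 2 Scf-GFP-positive and 3 control libraries did not overlap, with control higher in the 2 classes beyond 5 kb.

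Promoters closed more often than they opened. A promoter is here the kilobase on either side of a RefSeq gene start, known for 17274 genes. A summit lay in 9837 and 9811 of them in the Scf-GFP-positive lists and in 9034, 8791 and 9055 in the control lists. In all, 114 promoters (0.66%) were gained, with a summit in all 3 control lists and neither Scf-GFP-positive list, and 560 (3.24%) were lost, with a summit in both Scf-GFP-positive lists and no control list. A gain asks for presence in 3 lists and absence from 2, and a loss for presence in 2 and absence from 3, so the rule differs between them. With 2 control lists in place of 3 the counts were 141 to 149 gained and 627 to 701 lost. A further 8036 promoters were open in all 5 lists and 6665 in none. Over all deposited peaks, 76 of the gained promoters (66.7%) still had no summit in either fresh list, and 260 of the lost (46.4%) still had none in any control list, so about the other lost promoters only the strength of the peak is known to differ.

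**Figure D2:**
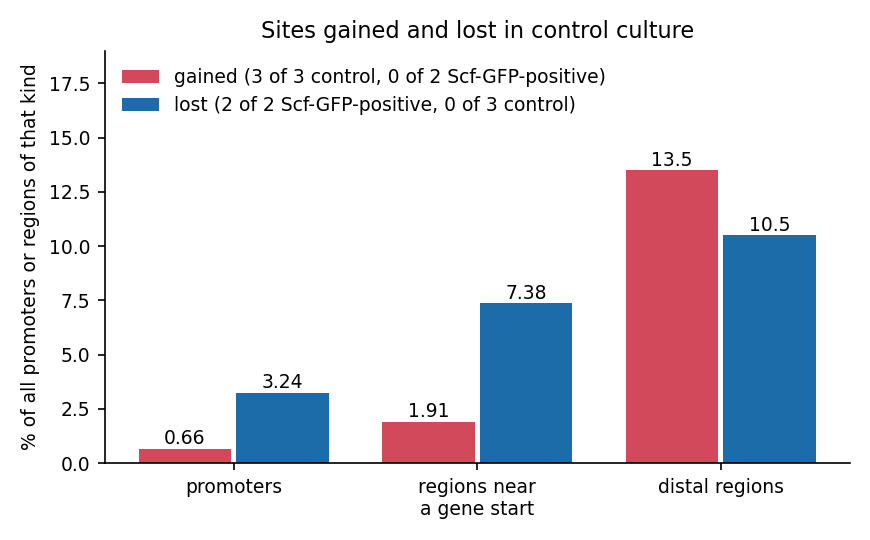
Sites gained (red) and lost (blue) in control culture, as a percentage of all promoters, of merged peak regions near a gene start and of distal regions. Losses exceeded gains at promoters and near starts, and gains exceeded losses at distal regions, where 13.5% were gained and 10.5% lost.

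The promoters that were lost include that of Lepr and those of several bone, fat and pericyte genes. Of 7 markers of the reticular niche cell with a known start, only Lepr was lost. The other markers were mostly kept, with 5 open in all 5 lists (Kitl, Cxcl12, Pdgfra, Foxc1 and Ebf3). Lepr had a summit in both Scf-GFP-positive lists and in none of the other 8 lists of the series. Of 13 osteoblast genes with a known start, 5 lost their promoter, against 3.24% of all promoters: Alpl, an alkaline phosphatase of mineralizing cells, Bglap, which encodes osteocalcin, Ibsp and Spp1, matrix proteins of bone, and Pth1r, the receptor for parathyroid hormone. Adipoq, the fat cell hormone adiponectin, and Apoe, a lipid carrier, also lost theirs, which with Lepr makes 3 of 13 adipocyte genes. Among 12 genes of pericytes and smooth muscle, 4 did, Abcc9, Notch3, Mcam and Synpo2. Bmp4, a signal for bone formation, Tnfsf11, the ligand that drives osteoclasts, Igfbp5, which binds insulin-like growth factors, and Meox2, a mesenchymal transcription factor, were lost as well. Over all deposited peaks, Lepr, Alpl, Bglap, Ibsp, Pth1r, Adipoq, Abcc9, Synpo2 and Bmp4 had no promoter summit in any control list, whereas Notch3, Mcam, Spp1, Apoe, Tnfsf11, Igfbp5 and Meox2 had one in at least 1.

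By the rank of their peaks, the strongest lost promoters were those of other genes. The Atp8a1 promoter, of a phospholipid flippase, held the peaks ranked 317 and 785 of 39912 in the fresh lists, and no control summit even over all deposited peaks. Nr3c2, the mineralocorticoid receptor, ranked 1837 and 738, and Gucy1b1, a subunit of the nitric oxide receptor, 3723 and 4331. Nr3c2 was open in all 3 rMSC lists (cultured stroma given Klf7, Ostf1, Xbp1, Irf3 and Irf7), and over all deposited peaks also in control replicate 2. Atp8a1 and Gucy1b1 were in no rMSC list. The sequences that follow are lost promoters of Lepr and of osteoblast genes, taken from RefSeq (GRCm38.p6 coordinates), from 250 bases before to 50 bases after the start, 5′ to 3′ on the strand of the gene. Capitals mark each match to any of 14 short motifs described further on.
Lepr, chr4:101717157-101717456, plus strand: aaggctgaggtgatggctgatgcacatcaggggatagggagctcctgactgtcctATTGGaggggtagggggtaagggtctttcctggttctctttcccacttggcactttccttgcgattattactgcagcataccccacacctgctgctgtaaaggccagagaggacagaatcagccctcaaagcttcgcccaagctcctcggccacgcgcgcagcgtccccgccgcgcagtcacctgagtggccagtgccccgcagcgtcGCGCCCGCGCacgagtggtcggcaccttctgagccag
Alpl, chr4:137796335-137796634, minus strand: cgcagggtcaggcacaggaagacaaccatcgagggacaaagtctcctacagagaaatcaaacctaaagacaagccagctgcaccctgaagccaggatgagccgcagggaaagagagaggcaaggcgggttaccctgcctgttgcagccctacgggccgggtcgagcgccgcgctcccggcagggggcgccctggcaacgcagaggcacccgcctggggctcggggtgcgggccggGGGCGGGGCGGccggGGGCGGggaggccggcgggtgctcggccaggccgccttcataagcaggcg
Bglap, chr3:88384417-88384716, minus strand: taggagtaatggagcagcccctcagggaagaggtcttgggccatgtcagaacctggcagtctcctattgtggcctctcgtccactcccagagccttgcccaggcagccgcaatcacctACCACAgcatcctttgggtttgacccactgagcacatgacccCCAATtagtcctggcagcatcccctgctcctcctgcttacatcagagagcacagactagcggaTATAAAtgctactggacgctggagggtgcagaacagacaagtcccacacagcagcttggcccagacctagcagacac
Pth1r, chr9:110742561-110742860, minus strand: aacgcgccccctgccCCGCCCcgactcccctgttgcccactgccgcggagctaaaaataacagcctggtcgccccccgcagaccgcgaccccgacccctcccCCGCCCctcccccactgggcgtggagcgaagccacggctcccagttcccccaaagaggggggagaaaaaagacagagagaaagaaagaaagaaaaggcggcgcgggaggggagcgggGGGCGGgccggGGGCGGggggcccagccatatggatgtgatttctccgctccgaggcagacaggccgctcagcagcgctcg

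The 3 genes Lepr, Alpl and Pth1r had starts rich in CpG, with 18, 26 and 27 CpG in the window, while Bglap had 4. Lepr matched the NRF1 motif and the CCAAT box, Alpl and Pth1r the GC box, and Bglap the TATA box, the CCAAT box and the Runx motif. Counting positions from the gene start, the Lepr summits of the fresh lists lay at 355 and 234 bp, and had a −log10 q of 12.3 and 5.40. The Alpl summits lay at -111 and 12 bp, with a −log10 q of 5.48 and 6.56. These and the Lepr peak of Scf-GFP-positive replicate 2 were thus weak peaks near the floor of the lists. The Pth1r summits lay at 260 and 174 bp, and those of Bglap at -171 and -542 bp. Bglap has near-identical neighbours, and how the authors placed reads that fit several copies is not stated in the labels.

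The gained promoters were fewer and belong to a mixed set of genes. Gpr39, a zinc-sensing receptor, held the strongest, with peaks ranked 983, 877 and 638 in the control lists. Hspb8, a small heat shock protein that helps clear misfolded proteins, followed at 2785, 2520 and 3273, and Cavin4, a coat protein of caveolae, at 3363, 2113 and 3460. List members among the gained were Plaur, the receptor that holds urokinase at the cell surface, Il1rl1, the receptor for interleukin 33, Col3a1 and Col6a3, fibrillar and beaded-filament collagens of connective tissue, Hmga2, a chromatin protein of growing mesenchyme, and Tek, the angiopoietin receptor. Over all deposited peaks Hspb8, Cavin4, Il1rl1, Col3a1, Col6a3 and Tek still had no summit in either fresh list. Gpr39 and Plaur had 1 in fresh replicate 2, and Hmga2 had 1 in both. The next sequences are those of gained promoters, in the same form.
Gpr39, chr1:125676746-125677045, plus strand: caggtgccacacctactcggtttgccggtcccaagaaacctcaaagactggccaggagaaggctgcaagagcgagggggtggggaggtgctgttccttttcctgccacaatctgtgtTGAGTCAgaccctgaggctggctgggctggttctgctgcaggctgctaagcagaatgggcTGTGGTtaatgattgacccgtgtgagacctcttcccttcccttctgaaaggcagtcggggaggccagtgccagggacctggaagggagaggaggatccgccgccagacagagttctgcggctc
Hspb8, chr5:116422815-116423114, minus strand: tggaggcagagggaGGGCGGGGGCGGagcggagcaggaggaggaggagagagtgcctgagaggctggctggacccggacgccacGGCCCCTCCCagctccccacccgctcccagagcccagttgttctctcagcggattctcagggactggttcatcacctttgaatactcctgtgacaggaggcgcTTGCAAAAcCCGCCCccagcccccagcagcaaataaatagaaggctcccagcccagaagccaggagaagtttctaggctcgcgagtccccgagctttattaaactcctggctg
Plaur, chr7:24462233-24462532, plus strand: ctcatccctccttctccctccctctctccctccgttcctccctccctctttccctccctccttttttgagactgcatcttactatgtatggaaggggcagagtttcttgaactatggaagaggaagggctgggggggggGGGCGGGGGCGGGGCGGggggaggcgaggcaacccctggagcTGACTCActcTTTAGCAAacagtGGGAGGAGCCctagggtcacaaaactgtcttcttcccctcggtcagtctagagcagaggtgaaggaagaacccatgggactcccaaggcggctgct
Il1rl1, chr1:40439379-40439678, plus strand: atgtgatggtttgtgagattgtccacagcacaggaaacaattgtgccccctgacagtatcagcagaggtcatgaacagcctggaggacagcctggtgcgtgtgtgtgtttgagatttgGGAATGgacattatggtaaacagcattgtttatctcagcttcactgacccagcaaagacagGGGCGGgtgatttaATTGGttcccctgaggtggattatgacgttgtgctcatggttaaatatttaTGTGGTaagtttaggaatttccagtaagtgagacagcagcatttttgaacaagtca

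Gpr39 matched the AP-1 and Runx motifs, and its summits lay at 18, -52 and -10 bp in control replicates 1, 2 and 3. Hspb8 matched the GC box, the C/EBP motif and a loose NF-kB-like pattern, and its summits lay at -50, -66 and -70 bp. Plaur matched AP-1, C/EBP, the GC box and the same NF-kB-like pattern. Il1rl1 matched the TEAD and Runx motifs, the GC box and the CCAAT box. The NF-kB-like pattern leaves its inner bases open and was found in 22.8% of all promoters. Its matches at Hspb8 and Plaur therefore do not show an NF-kB motif. Peaks at Gpr39 had a −log10 q of 70.2, 75.6 and 79.9 and at Hspb8 46.3, 48.6 and 42.7, well above the floor of the lists. At Il1rl1 the value was 21.0, 12.4 and 6.47, the last in control replicate 3, where the summit lay at 540 bp.

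Gained and lost promoters differed in sequence, read at 1 start per gene, one with a summit where the class has one. The gained had a median GC content of 52.2% and 7 CpG in 300 bp, and 38.6% of them had at least 10 CpG. The lost had 62.3% GC and 18 CpG, with 72.5% at 10 or more, closer to promoters open in all 5 lists (62.0%, 23 CpG and 92.0%). Over all 17274 promoters the medians were 56.3% and 14 CpG, with 57.8% at 10 or more. AP-1, the motif bound by Fos and Jun proteins (TGANTCA, N standing for any base, the same on both strands), was found in 28 of 114 gained promoters (24.6%), 20 of 557 lost promoters (3.59%), 3.89% of promoters open in all 5 lists, 11.1% of those open in none and 7.14% of all. The share in gained promoters was thus above that of every other class, and Gpr39, Plaur, Gpnmb, Ecm1, Procr and Cd80 were among the 28. The motif of ETS factors (CCGGAAG) was present in 2.63% of gained, 7.36% of lost, 21.4% of always open and 2.75% of never open promoters and 12.0% of all.

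The other motifs were searched on both strands in the same way, with overlaps counted. The GC box (GGGCGG) was in 36.0% of gained, 65.2% of lost and 46.9% of all promoters. Runx (TGTGGT) was in 21.9%, 12.2% and 14.9%, the TATA box (TATAAA) in 17.5%, 8.44% and 13.4%, TEAD (CATTCC) in 17.5%, 13.3% and 13.3%, and C/EBP (TTGCNNAA) in 8.77%, 8.26% and 10.3%. The NF-kB-like pattern, loose because its inner bases are open, was in 21.1%, 30.5% and 22.8%. The CCAAT box (CCAAT) was in 33.3%, 29.6% and 39.4%, NRF1 in 3.51%, 7.36% and 8.91%, and the E-box (CACGTG) in 2.63%, 8.26% and 7.99%. IRF was in 4.39%, 3.23% and 3.43%. CRE (TGACGTCA) and EBF were in 0 of the 114 gained promoters, against 1.97% and 2.15% of lost and 2.37% and 0.949% of all. These are shares of windows with matching letters and are not binding sites, and no test was made of them.

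**Figure D3:**
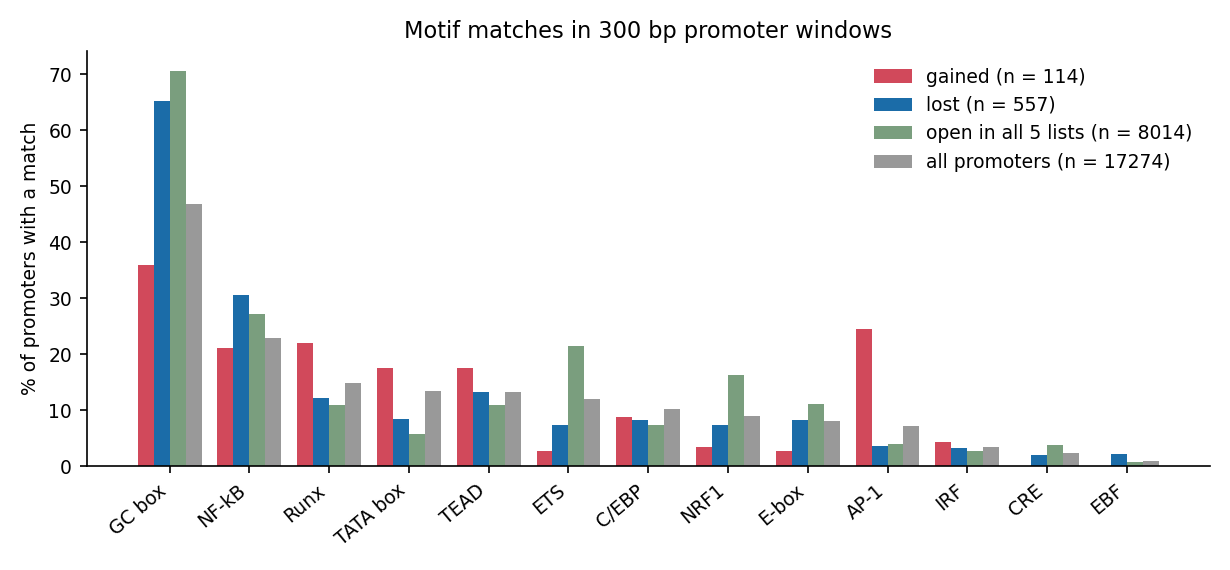
Percentage of promoters with at least 1 match to each motif (vertical axis) among gained, lost, always open and all promoters, in the window from 250 bp before to 50 bp after the start. AP-1 stands at 24.6% in gained promoters against 7.14% of all, and ETS and NRF1 are highest in promoters open in all 5 lists; the CCAAT box is not drawn.

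Most of what changed lay away from gene starts. Peaks of the 5 lists merged into 61907 distal regions, of which 8382 (13.5%) were gained and 6518 (10.5%) lost, while 5569 were open in all 5 lists. Near starts, 287 of 15032 regions (1.91%) were gained and 1109 (7.38%) lost, and 9278 were open in all 5. Distal regions thus made up 96.7% of gained and 85.5% of lost regions, against 80.5% of all. Gained distal regions lay at a median of 35478 bp from a gene start, lost ones at 30509 bp and all distal regions at 29551 bp, and 50.9%, 52.0% and 52.0% of them lay inside a gene. With both fresh lists required and any 1 control list left out, 6972 to 7040 distal regions were lost and 10206 to 10687 gained. With 1 fresh list left out, the lost rose to 14535 or 14543 and exceeded the gained, at 9615 or 9360, so which is larger depends on the lists required.

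The strongest gained distal region lay at chr12:104415314-104416322, 8606 bp from the start of Serpina3n, a protease inhibitor of the acute phase, and held the peaks ranked 105, 123 and 125 in the control lists. The next lay inside Pdpn, the membrane glycoprotein podoplanin of fibroblastic cells, at chr4:143278231-143279009 and ranked 814, 440 and 528. Others of the 8 strongest lay inside Gas7, Srgap1 and Il1rl1 and 99047 bp from Nr2f2, a nuclear receptor of mesenchyme. All 8 were open in all 3 rMSC lists and in neither Scf-GFP-negative list. The strongest lost distal region was at chr5:150118078-150119377 inside Fry, and ranked 1480 and 2154 in the fresh lists, and it was open in both Scf-GFP-negative lists too. One at chrX:140505505-140506751, 35917 bp from Tsc22d3, a glucocorticoid-induced regulator, ranked 3918 and 4846 and was open in both Scf-GFP-negative and all 3 rMSC lists. Assigned to the nearest start, the most gained regions fell to Nrg1, a ligand of ErbB receptors, with 15 gained and 0 lost of 30. Nr2f2 had 10 and 0 of 17. Rgs3, a brake on G protein signals, had 1 gained and 15 lost of 47, and Tnfsf11 1 and 8 of 15.

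Libraries that took no part in the choice showed how far these sites are shared. Of the gained distal regions, 3659 (43.7%) had a peak in all 3 rMSC lists, against 345 of the lost (5.29%), 70.9% of those open in all 5 lists and 22.5% of all distal regions. At promoters the same shares were 57.9% for gained, 10.4% for lost and 48.6% for all. In both Scf-GFP-negative lists lay 1.55% of the gained distal regions, 19.5% of the lost and 10.6% of all. Of the lost distal regions 4803 (73.7%) had no peak in either Scf-GFP-negative list, against 94.1% of the gained and 81.7% of all distal regions. Of the lost promoters, 211 (37.7%) were open in both of those lists, against 14 gained (12.3%) and 47.6% of all promoters.

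Counted over 100 kb tiles, distal summits were gained in more places than they were lost. Of 5295 tiles with a mean of at least 2 distal summits, 764 (14.4%) held more in control and 412 (7.78%) fewer by limma (adjusted p under 0.05). The median of all tiles was shifted by 0.08 on the log2(summits + 0.5) scale. The tile over Hspb8 and Srrm4 held 0 and 0 distal summits in the fresh lists and 8, 8 and 8 in the control lists. The tile that overlaps one end of Flt1, a receptor for vascular endothelial growth factor, held 0 and 0 against 7, 7 and 6, and that of Pik3r5 0 and 0 against 7, 8 and 7. In the other direction, the tile of Dcbld2 and St3gal6 held 8 and 9 against 0, 0 and 0, that over part of Fry 11 and 6 against 0, 0 and 0, and that of Mpo and Tspoap1 8 and 7 against 0, 0 and 0. The Mpo locus itself ran the other way, with 0 and 0 summits against 1, 1 and 1. These tiles were named for the size of their change, so their separation follows from that choice. Rising tiles were single for the most part, forming 687 runs of which 7 reached 3 tiles. One such run of 300 kb lay over Tes, Cav2 and Cav1, the caveolins that shape membrane pits, with 4 and 5 against 14, 17 and 12 distal summits, and one by Ahr, a receptor for aromatic ligands, with 5 and 8 against 21, 18 and 16. Falling runs of 3 tiles included one over Dcbld2, St3gal6 and Cpox, with 21 and 20 against 0, 2 and 0. The filter averages 5 libraries of which 3 are control, and when each group was weighted equally, a setting chosen after seeing the data, 560 tiles rose and 456 fell.

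At the level of genes, similar numbers of loci gained and lost summits in lists of equal size. A locus is the gene body extended by 10 kb at each end. The 8865 loci that averaged 2 summits or more were tested with limma on log2(summits + 0.5). Of these, 540 (6.09%) had more summits in control and 528 (5.96%) had fewer, 12% in all. The 2 groups did not overlap in any of the 1068 called loci, nor in 32.5% of all tested loci. The near equality rests on the list size and the filter. It was 343 against 113 over all deposited peaks, and 464 against 582 when the filter weighted both groups equally, a setting chosen after seeing the data. Calls came with few summits and few libraries: leaving out 1 library gave 250 to 310 rising and 158 to 328 falling loci. Scf-GFP-positive replicate 1 mattered most, since 261 rose and 158 fell without it. Among loci with a known start, the promoter was open in all 5 lists for 69.6% of the rising and 56.6% of the falling loci, against 73.3% of all tested, so most changes were of other summits in the locus. The promoter was gained at 4.47% of rising loci and lost at 16.3% of falling loci, against 0.806% and 3.55% of all tested loci.

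The loci that rose most went from no summit to several. Since the fresh lists hold none, they met the minimum of 2 summits through control alone and had to differ, so their p-values are given as a description. Hspb8 held 0 and 0 summits in the fresh lists and 5, 5 and 5 in the control lists (adjusted p = 0.000134). Slc7a14, a lysosomal transporter, held 0 and 0 against 9, 6 and 5 (adjusted p = 0.000309), and Il1rl1 0 and 0 against 4, 6 and 6 (adjusted p = 0.000942). P4ha3, an enzyme that hydroxylates collagen, held 0 and 0 against 5, 4 and 5 (adjusted p = 0.000134). Trpm6, a magnesium channel, held 0 and 0 against 4, 7 and 5 (adjusted p = 0.000333), and Aldh1a1, which makes retinoic acid, 0 and 0 against 4, 4 and 6 (adjusted p = 0.00359). Nrg1 had the most summits in control, 18, 18 and 16 against 2 and 1, but its adjusted p of 0.0299 was between 0.0733 and 0.142 when any 1 library was left out and 0.107 over all deposited peaks. Igsf23, Soat2 and Trhr2 also went from 0 in both fresh lists to at least 3 in each control list.

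Loci that fell most went from many summits to 0 or 1, and those at 0 met the minimum through the fresh lists alone. St3gal6, a sialyltransferase, held 13 and 12 summits against 0, 0 and 0 (adjusted p = 0.00147), and Sema4d, a semaphorin that restrains bone formation, 11 and 14 against 0, 0 and 0 (adjusted p = 0.00147). Car3, a carbonic anhydrase of fat and muscle, held 8 and 7 against 0, 0 and 0 (adjusted p = 0.000229). Ppp1r3b, a regulator of glycogen synthesis, held 6 and 4 against 0, 0 and 0 (adjusted p = 0.000768), and Abcc9, a subunit of the potassium channel of pericytes, 5 and 5 against 0, 0 and 0 (adjusted p = 0.0151). Bcl11a, a transcription factor of blood cells, held 10 and 7 against 1, 0 and 0 (adjusted p = 0.00606). Over all deposited peaks St3gal6 held 15 and 18 against 0, 1 and 1, while the call was lost for Car3 (adjusted p = 0.0648) and Bcl11a (adjusted p = 0.102). Col13a1, Tspoap1, Clstn2 and Tmem51 fell from at least 5 to 0 in every control list, and over all deposited peaks the call was lost for Clstn2 (adjusted p = 0.201) and Tmem51 (adjusted p = 0.0532).

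**Figure D4:**
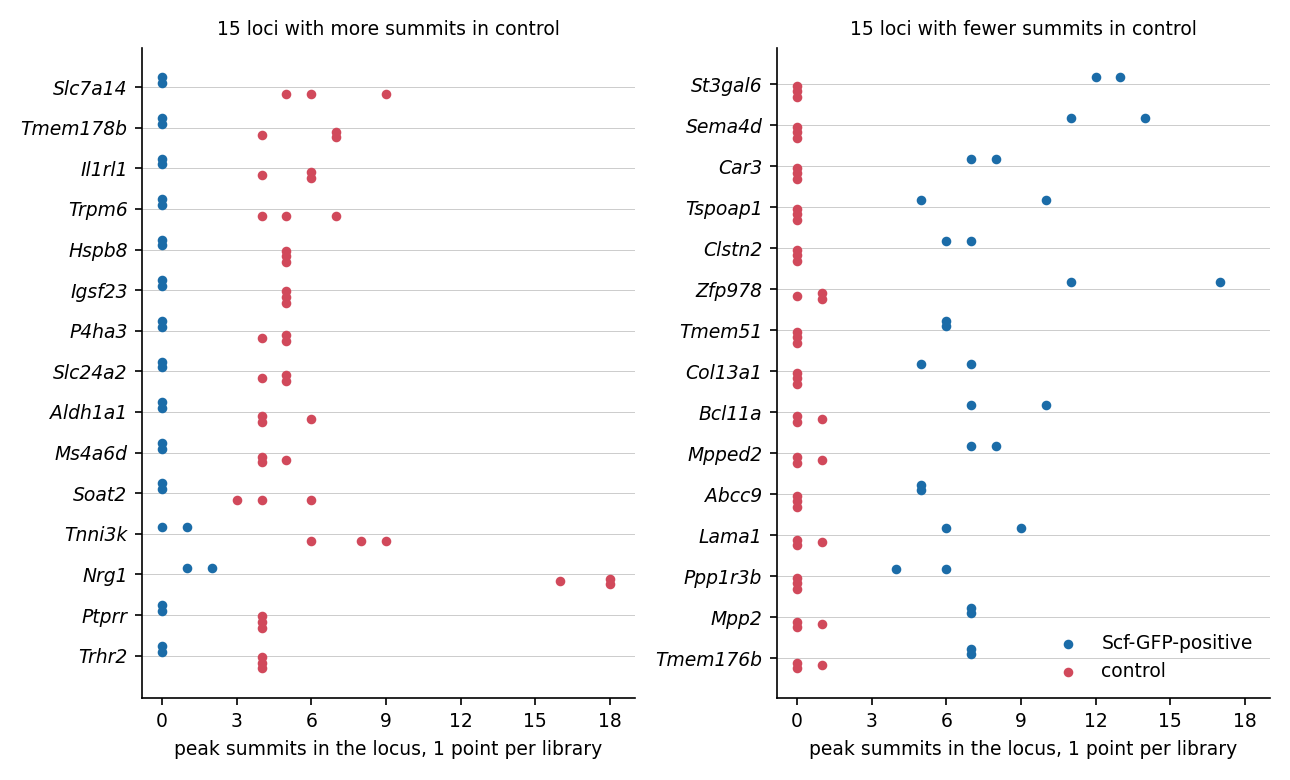
Peak summits in the locus (horizontal axis), 1 point per library, for the 15 loci with the largest rise and the 15 with the largest fall among those that passed. Only loci whose fresh and control points do not overlap were chosen, so their separation follows from that choice. In most of the 30 loci 1 of the groups lies at 0.

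Gene lists were read next, by the members with at least 2 summits on average. Among all tested loci 6.09% rose and 5.96% fell. A member at 0 in a group was tested only because the other group was high, so counts and medians describe the tested members and support no statement on a list as a whole.

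Markers of the reticular niche cell gave no calls. Of the 8 markers, 7 were tested and none passed by limma in either direction (1 higher and 1 lower at an unadjusted p under 0.05), with a median of -0.03 on the log2(summits + 0.5) scale against 0.00 for all loci. Kitl held 8 and 2 summits against 6, 6 and 5, so the fresh replicates themselves differed more than the groups did (difference 0.42 ± 0.58 SE, adjusted p = 0.705). It turned to -0.47 without Scf-GFP-positive replicate 2 and to -0.04 over all deposited peaks. Cxcl12 held 2 and 3 against 2, 4 and 4 (adjusted p = 0.729), and Pdgfra, a growth factor receptor of these cells, 10 and 5 against 6, 7 and 8 (adjusted p = 1). Ebf3, a transcription factor of reticular cells, held 3 and 4 against 10, 9 and 12, groups that do not overlap, at 1.44 ± 0.38 (SE) and an adjusted p of 0.0522. Under another random order of tied peaks, a setting chosen after seeing the data, Ebf3 passed (adjusted p = 0.0467). Prrx1 held 8 and 5 against 4, 3 and 3 (adjusted p = 0.0991), Foxc1 5 and 5 against 4, 1 and 3 (adjusted p = 0.492) and Pdgfrb 7 and 5 against 4, 3 and 5 (adjusted p = 0.645). Lepr, with 2 and 2 against 0, 0 and 0, had too few summits to be tested.

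Among secreted niche factors some loci gained and 1 lost summits. Of 28 listed, 20 were tested, 3 rose and 1 fell, against 6.09% and 5.96% of all loci, with a median of 0.00. Fgf2, which drives growth of stromal cells, held 2 and 2 summits against 8, 9 and 7 (1.76 ± 0.27 SE, adjusted p = 0.0101), and the adjusted p was 0.0566 and 0.0503 when the first or the second Scf-GFP-positive library was left out. Its relative Fgf1 moved the other way, with 9 and 9 against 1, 1 and 3 (-2.26 ± 0.36 SE, adjusted p = 0.0111), and 0.0626 and 0.0561 without those same libraries. Fgf1 stood at -1.03 over all deposited peaks and did not pass (adjusted p = 0.298). Ccl2, a chemokine for monocytes, held 2 and 2 against 4, 5 and 6 (1.12 ± 0.15 SE, adjusted p = 0.00626). Thpo, which encodes thrombopoietin, held 3 and 3 against 5, 4 and 5 and passed at 0.0438, a call that was lost when either fresh library or control replicate 1 or 3 was left out (0.104 to 0.138) or tied peaks were put in another order (0.142). Angpt1 held 11 and 8 against 5, 8 and 7 (adjusted p = 0.189). The promoters of Bmp4 and Spp1 were lost, and 12 of the 20 with a known start were open in all 5 lists.

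Several genes of bone formation lost open sites. Of 20 listed, 13 were tested, 0 rose and 4 fell (30.8%, against 5.96% of all loci), with a median of -0.83, the lowest of the 25 lists, and their summed summits went from 101 and 100 to 51, 46 and 45. Pth1r held 11 and 10 summits against 2, 1 and 1 (-2.63 ± 0.30 SE, adjusted p = 0.00327) and kept its call in all fits with 1 library left out. Alpl held 11 and 9 against 1, 1 and 1 (-2.80 ± 0.59 SE, adjusted p = 0.0268). Sp7, the transcription factor that commits cells to bone, held 6 and 6 against 2, 2 and 2 (-1.38 ± 0.29 SE, adjusted p = 0.0271), and Dlx5, a homeobox gene of bone, 3 and 6 against 0, 1 and 1 (adjusted p = 0.0345). The calls of Alpl and Sp7 were lost without any 1 library, at 0.0683 to 0.124 and 0.0694 to 0.114, and that of Dlx5 without Scf-GFP-positive replicate 1 (0.0712) or control replicate 2 (0.051). Sp7 (-0.84, adjusted p = 0.16) and Dlx5 (-1.37, adjusted p = 0.123) did not pass over all deposited peaks, and Pth1r passed at -1.55 (adjusted p = 0.0256). Bglap, at 3 and 6 against 1, 0 and 0, did not pass (adjusted p = 0.0618), though it did over all deposited peaks (-1.71, adjusted p = 0.04). Runx2 held 17 and 16 against 13, 9 and 8 (adjusted p = 0.206). Of 14 tested adipocyte genes (17 listed) 1 fell, 7.14% against 5.96% of all loci, namely Apoe, with 4 and 3 against 1, 1 and 1 (adjusted p = 0.0332, 0.0807 to 0.0842 without a control library and 0.19 over all deposited peaks), and the median was -0.29. The Adipoq locus held 2 and 2 against 3, 3 and 3 although its promoter was lost, and Pparg, the regulator of fat cells, 4 and 3 against 4, 5 and 3 (adjusted p = 0.666).

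Pericyte and smooth muscle genes and mesenchymal transcription factors had falls and no rises. Of 13 tested pericyte and smooth muscle genes (16 listed), 0 rose and 3 fell (23.1%, against 5.96% of all loci), with a median of -0.67 and summed summits of 82 and 79 against 50, 47 and 41. Notch3, a receptor that keeps mural cells in place, held 10 and 8 against 2, 1 and 2 (-2.16 ± 0.37 SE, adjusted p = 0.0139), with 0.0794 and 0.0544 without either fresh library and -1.05 over all deposited peaks (adjusted p = 0.0934). Tbx18, a T-box factor of mural cells, held 5 and 6 against 1, 1 and 1 (-1.99 ± 0.18 SE, adjusted p = 0.00119). Of 31 tested mesenchymal regulators (36 listed), 0 rose and 7 fell (22.6%, against 5.96%), namely Meox1, Tbx18, Twist1, Nfib, Zeb2, Gli2 and Runx1, while the median was -0.18. Nfib held 20 and 18 against 7, 6 and 8 (-1.39 ± 0.18 SE, adjusted p = 0.00511), and Zeb2 18 and 15 against 6, 8 and 8 (adjusted p = 0.0106). Runx1 held 21 and 23 against 11, 12 and 11 (adjusted p = 0.00921). None of these 7 calls remained by limma over all deposited peaks. Tbx18 then stood at -1.23 (adjusted p = 0.199), Nfib at -0.71 (0.225), Zeb2 at -1.24 (0.0888), Runx1 at -0.78 (0.107), Gli2 at -0.73 (0.319), Meox1 at -1.20 (0.277) and Twist1 at -0.52 (0.528). Twist1 held 5 and 4 against 1, 1 and 1 (adjusted p = 0.00741), but not with tied peaks in the other order (adjusted p = 0.171). Prrx2 and Twist2 ran opposite to Twist1, with 2 and 0 against 4, 4 and 6 and 2 and 0 against 3, 4 and 5, and did not pass (adjusted p = 0.088 and 0.162).

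Growth factor, inflammatory, protease and fibroblast genes had the highest medians of tested members. Of 21 tested growth factor ligands and receptors (31 listed), 4 rose, against 6.09% of all loci, and 0 fell, with a median of 0.43 and summed summits of 102 and 88 against 123, 135 and 137. Ereg, a ligand of the epidermal growth factor receptor, held 0 and 0 against 3, 3 and 4 (adjusted p = 0.000232), and so met the minimum through control alone. Bdnf, a neurotrophin, held 1 and 0 against 6, 6 and 5 (2.83 ± 0.40 SE, adjusted p = 0.00724). The other 2 that rose were Nrg1 and Fgf2. With the groups weighted equally in the filter, a setting chosen after seeing the data, 3 rose and 1 fell. Pdgfd, at 4 and 4 against 0, 0 and 0, fell short of the minimum of 2 summits and was not tested. It fell over all deposited peaks (limma adjusted p = 0.00212), and the promoters of Pdgfd and Tgfa were lost. Of 13 tested inflammatory genes (28 listed), 4 rose (30.8%) and 1 fell (7.69%), with a median of 0.45. Ccl7, a chemokine next to Ccl2 whose locus shares summits with it, held 0 and 0 against 3, 4 and 4 (adjusted p = 0.00119). Receptors of related cytokines parted. Osmr, for oncostatin M, held 1 and 2 against 4, 5 and 3 (1.19 ± 0.29 SE, adjusted p = 0.039). Its adjusted p was 0.189 when Scf-GFP-positive replicate 1 was left out, 0.0959 and 0.105 without control replicates 1 and 2, 0.0792 over all deposited peaks, and 0.0506 with tied peaks in the other order. Lifr, for leukaemia inhibitory factor, held 7 and 11 against 3, 3 and 3 (-1.41 ± 0.18 SE, adjusted p = 0.00553), although over the 20000 strongest peaks it stood at 0.13, and over all deposited peaks it did not pass (adjusted p = 0.14).

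Of 17 tested matrix proteases and their inhibitors (22 listed), 2 rose (11.8%, against 6.09% of all loci) and 0 fell, with a median of 0.43. Plaur held 1 and 1 summits against 4, 4 and 2 (1.30 ± 0.25 SE, adjusted p = 0.0207) and Adamts12, a secreted metalloprotease, 3 and 5 against 8, 11 and 9 (1.15 ± 0.28 SE, adjusted p = 0.04). Leaving out single libraries ended both calls, with adjusted p up to 0.0892 for Plaur and 0.201 for Adamts12, each without Scf-GFP-positive replicate 1. Of 21 tested fibroblast genes (28 listed), 2 rose (9.52%, not far from the 6.09% of all loci) and 0 fell, with a median of 0.42 and summed summits of 89 and 80 against 113, 106 and 127. S100a4, a marker of migrating fibroblasts, held 2 and 3 against 6, 7 and 7 (1.27 ± 0.24 SE, adjusted p = 0.0183). Its adjusted p was 0.096 when Scf-GFP-positive replicate 1 was left out, and 0.0555 and 0.0537 without control replicates 2 and 3. Vim, which encodes the filament vimentin, held 2 and 3 against 6, 5 and 5 (adjusted p = 0.0463), and any 1 library left out ended that call, at 0.0733 to 0.222, as did the other order of ties (0.0682) and all deposited peaks (0.201). Col3a1, at 1 and 2 against 5, 3 and 5 (adjusted p = 0.289), and Cd44, at 3 and 2 against 8, 3 and 9 (adjusted p = 0.14), did not pass. Over all deposited peaks 3 fibroblast loci rose by limma and 0 fell. They were S100a4, Col3a1 (2.28, adjusted p = 0.0267) and Dcn (2.94, adjusted p = 0.0138), the last not tested in the equal lists.

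Immediate early and Hippo pathway genes were also read. AP-1 is made of Fos and Jun proteins, which answer to growth signals and to handling of cells. Of 25 tested AP-1 and immediate early genes (27 listed), 0 rose and 2 fell (8.0%, near the 5.96% of all loci), with a median of -0.26. Fos held 12 and 11 summits against 7, 5 and 5 (-0.98 ± 0.15 SE, adjusted p = 0.0101) and Fosb 17 and 12 against 9, 5 and 4 (adjusted p = 0.0392). The call of Fos was lost without Scf-GFP-positive replicate 1 (0.056), over all deposited peaks (-0.62, adjusted p = 0.134) and over the 20000 strongest (-0.048, adjusted p = 1), and that of Fosb without either fresh library or without control replicate 2 or 3 (0.0803 to 0.197). Fosl1, a Fos relative of growing mesenchyme, held 2 and 3 against 4, 3 and 4 (adjusted p = 0.118). The AP-1 motif was thus more frequent in gained promoters while no AP-1 gene locus passed with more summits. The YAP and TEAD pathway responds to stretch and stiffness, and of its 16 tested genes (19 listed) 3 rose (18.8%, against 6.09%) and 1 fell (6.25%, against 5.96%), with a median of 0.14. Vgll3, a cofactor of TEAD, held 3 and 3 against 8, 7 and 7 (1.16 ± 0.12 SE, adjusted p = 0.00244) and Wwtr1, which encodes TAZ, 4 and 4 against 7, 8 and 8 (0.86 ± 0.12 SE, adjusted p = 0.00642). Lats2, the kinase that restrains YAP, held 3 and 2 against 5, 6 and 8 (adjusted p = 0.0318, up to 0.151 with 1 library left out and 0.46 over all deposited peaks), and Crim1 14 and 13 against 6, 5 and 6 (adjusted p = 0.00939, 0.0566 when Scf-GFP-positive replicate 1 was left out, 0.0535 with tied peaks in the other order and 0.398 over all deposited peaks). The direction of Wwtr1 turned to -0.57 over the 20000 strongest peaks.

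**Figure D5:**
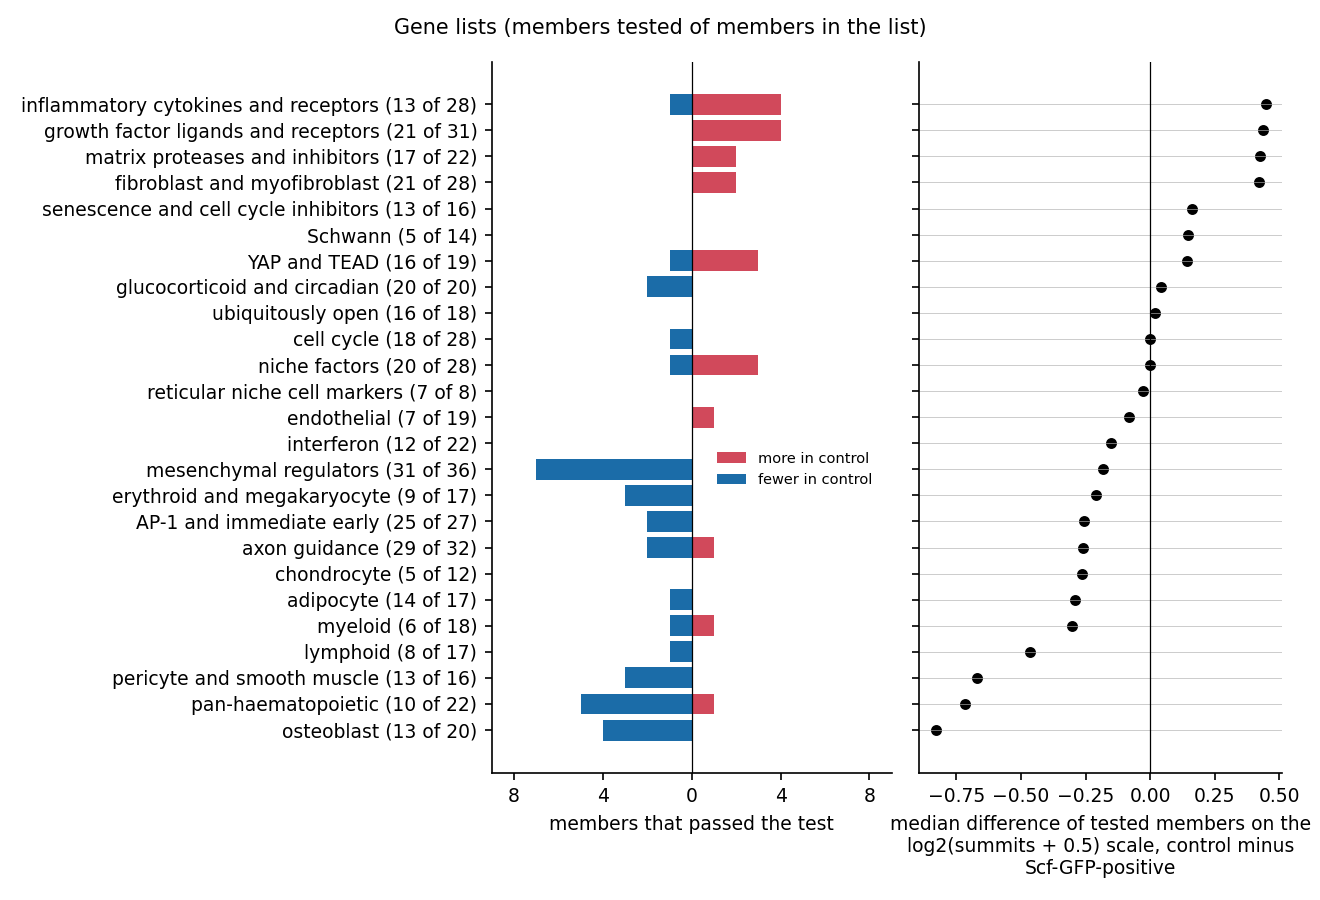
Left, members of each gene list that passed with more (red, rightward) or fewer (blue, leftward) summits in control; right, median difference of the tested members on the log2(summits + 0.5) scale. Medians run from -0.83 for osteoblast genes to 0.45 for inflammatory genes, against 0.00 for all loci tested.

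The remaining lists gave few calls. Of 16 tested loci of genes that every cell uses, none passed by limma (2 higher and 2 lower at an unadjusted p under 0.05), with a median of 0.02 and summed summits of 58 and 59 against 56, 57 and 58. Over all deposited peaks 1 of these 16 rose by limma, Actb, at 1.28 (adjusted p = 0.0331), and 0 fell. All 14 promoters of this gene list with a known start were open in all 5 lists, as were all 22 of the cell cycle list. In the cell cycle list 0 rose and 1 fell of 18 (5.56%, near the 5.96% of all loci). That was Ccnd3, at 11 and 11 against 7, 7 and 7 (-0.62 ± 0.09 SE, adjusted p = 0.00737, but 0.0847 over all deposited peaks). Mki67, a marker of dividing cells, held 2 and 2 against 2, 3 and 3 (adjusted p = 0.502). None of 12 interferon, 5 chondrocyte or 13 senescence genes passed by limma, with 0, 1 and 0 higher and 2, 2 and 4 lower at an unadjusted p under 0.05, and their medians were -0.15, -0.26 and 0.16. Igfbp5, of the last list, held 7 and 5 against 1, 1 and 2 (adjusted p = 0.0518). Of 20 glucocorticoid and circadian genes 0 rose and 2 fell (10.0%, against 5.96% of all loci), Bhlhe40 and Cry2. Both were lost without Scf-GFP-positive replicate 1, at 0.0684 and 0.15. Of 29 axon guidance genes 1 rose (3.45%, against 6.09% of all loci) and 2 fell (6.90%, near the 5.96% of all loci). Epha4 rose, though its adjusted p reached 0.145 without Scf-GFP-positive replicate 2, and Sema4d and Epha7 fell. Bhlhe40, Cry2, Epha4 and Epha7 did not pass over all deposited peaks (adjusted p of 0.448, 0.3, 0.232 and 0.59).

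Some blood cell markers lost summits and others gained them, although the gate was set to remove those cells. The pan-haematopoietic list had summed summits of 88 and 87 in the fresh lists against 38, 37 and 42, and of 10 tested members (22 listed) 1 rose and 5 fell, against 5.96% of all loci that fell (Bcl11a, Fli1, Spi1, Lyl1 and Runx1, the last also a mesenchymal regulator). Leaving out single libraries ended the calls of Fli1 (up to 0.118), Spi1 (up to 0.0939) and Lyl1 (up to 0.169). None of the 5 calls remained by limma over all deposited peaks, with an adjusted p of 0.102 for Bcl11a, 0.123 for Fli1, 0.124 for Spi1, 0.355 for Lyl1 and 0.107 for Runx1. Of its 17 promoters with a known start, 6 were lost (Bcl11a, Coro1a, Ikzf1, Lcp1, Lyl1 and Myb), against 3.24% of all promoters, and all 6 were open in both Scf-GFP-negative lists. Over all deposited peaks Bcl11a and Coro1a had a summit in control replicates 2 and 3 and Lcp1 and Myb in control replicate 3, and Ikzf1 and Lyl1 had none. The defining gene Ptprc, which encodes CD45, had no summit in its locus in either fresh list and 2, 1 and 2 in control, with its promoter open in none of the 5. Itgb2, an integrin of leukocytes, ran the other way too, at 0 and 0 against 3, 3 and 4 (adjusted p = 0.000955). Summed over myeloid genes the summits were 23 and 30 against 23, 23 and 23, over lymphoid genes 52 and 67 against 47, 38 and 50, and over erythroid and megakaryocyte genes 40 and 43 against 28, 21 and 30. Of 6 tested myeloid genes 1 rose, Cx3cr1, and 1 fell, Fcgr3 (16.7% each). Of 8 lymphoid genes 1 fell, Sema4d (12.5%), and of 9 erythroid and megakaryocyte genes 3 fell, Zfpm1, Nfe2 and Klf1 (33.3%). Over all loci 6.09% rose and 5.96% fell. Of these calls only that of Sema4d remained over all deposited peaks. The loci of Csf1r, Adgre1, S100a8, S100a9, Cd3e, Cd8a, Cd79b, Ms4a1, Gata1 and Hbb-bt held no summit in any of the 5 lists. Endothelial genes summed to 47 and 39 against 45, 41 and 41, with Emcn, Sox7 and Sox17 at 0 throughout, and Schwann cell genes to 38 and 31 against 35, 36 and 37, with Sox10 at 0. Of 7 tested endothelial genes (19 listed) 1 rose (14.3%, against 6.09% of all loci) and 0 fell. That was Tek, at 0 and 0 against 4, 3 and 3 (limma adjusted p = 0.003, and 0.00832 over all deposited peaks). Tek met the minimum through control alone. None of 5 tested Schwann cell genes passed by limma. Whether other cells had a part in the falling loci was not tested beyond these values. In bulk libraries, fewer cells of a type and less open chromatin per cell cannot be told apart.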

How the data were processed

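ATAC-seq peak lists of 10 mouse marrow stroma libraries were used, 1 per library, as the authors called them. The submitters' processing notes name BWA, MACS2 and the mm10 build, without settings or versions. For each peak the authors deposited a fold enrichment (the ratio of the summit to the background of the caller), −log10 values of p and q, and an integer score. They served only to rank or describe peaks within a list. In each library the fold values were whole multiples of 1 step for 100% of peaks below the tallest (tolerance 0.01). Fragments at summits and the caller's background were read from that step, taking a fold as (fragments + 1) / (background + 1). Read depth is not known from the peak lists.

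Only chromosomes 1 to 19 and X entered. Equal lists hold 39912 peaks, and the 6755 to 9121 peaks per compared library tied at the limit were put in a seeded random order. Starts came from RefSeq (GRCm38.p6) for 17274 of 21631 protein-coding genes. For the other 4357, both gene ends counted as possible starts when sites were called near or distal. Summits per locus and per 100 kb tile were fitted with limma 3.58.1 in R 4.3.3 (trend, log2(summits + 0.5), 4 groups in 1 fit, 6 residual degrees of freedom), with Benjamini-Hochberg adjustment and a two-sided threshold of 0.05. Differences are control minus Scf-GFP-positive. Where a group has no summit the fitted value depends on the 0.5 added, so summit counts are given instead. Neighbouring genes can share summits. Tables and figures were made with Python 3.11.15, pandas 2.3.3, numpy 2.4.6 and matplotlib 3.10.9. The fit was also run on simulated, independent Poisson summit counts with known changes. Those counts hold no tied peaks, shared summits or background that differs between groups, so that run cannot speak to errors of the calls here. Alternatives changed the list size, filter, pseudocount, covariates, locus, distance, ties and the libraries used.

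Named loci are the 15 rising and 15 falling with the largest change that passed without overlap (numbered clones and olfactory, vomeronasal and defensin genes left out, 1 kept of genes within 50 kb), up to 4 passing members per list and direction, and the 8 niche markers with Alpl and Angpt1. Other list genes given with values were picked after their values were seen. Named promoters are the 10 best ranked per direction and every gained or lost list member, named regions the 8 best ranked, and named tiles the 6 with the largest change per direction. The groups, lists and motifs were chosen with earlier results of these data known. Sequences under distal peaks were not analysed here.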

Additional observations from a re-analysis of the deposited data

Results flagged for a closer look

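Chromosome Y was set aside in every comparison. The deposited lists nevertheless held 47 and 25 peaks on it in Scf-GFP-positive replicates 1 and 2, and 18, 22 and 17 in control replicates 1, 2 and 3. They are given because they lie in data the comparisons do not use, and no test was made of them.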

How the results depend on the processing

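The share of summits within 1 kb of a start was lower in control under every alternative run, at -8.09 to -3.70 percentage points. Over all deposited peaks it was -4.13 points with an exact permutation p of 0.4, against 0.2 in equal lists, so the groups were not fully separated there. The difference in median width was not stable, at -32.7 to 18.5 bp with 1 library left out (10.3 when Scf-GFP-positive replicate 2 was the one, and 18.5 for control replicate 1). Counts of calls moved more. Against 540 rising and 528 falling loci, all deposited peaks gave 343 and 113, the 20000 strongest peaks 263 and 205, no filter on low values 920 and 1094, the gene body alone 321 and 244, and 1 library left out 250 to 310 and 158 to 328. Against 764 rising and 412 falling tiles, all deposited peaks gave 991 and 195, the 20000 strongest 205 and 107, no filter 2313 and 1397, and 1 library left out 360 to 781 and 140 to 324. Rising loci made up 50.6% of calls, 75.2% over all deposited peaks, 44.4% with the groups weighted equally in the filter and 62.3% without Scf-GFP-positive replicate 1. For tiles the share was 65.0%, then 83.6% over all deposited peaks, 82.6% and 84.8% without either fresh library and 55.1% with the groups weighted equally in the filter. The median tile was shifted by 0.32 over all deposited peaks, 0.20 with no filter and 0.16 without either fresh library. Lost promoters numbered 358 over all deposited peaks, and gained ones 141 to 204 with 1 library left out. Distal regions gained were 13355 over all deposited peaks and 3651 over the 20000 strongest, and those lost 2652 over the strongest and 6972 to 14543 with 1 library left out. Fewer lists to satisfy raises such counts by construction, and the cause was not tested for the other settings.

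With the replicate number as a block, 224 loci rose and 195 fell, and 479 and 228 tiles. Deviations of same-numbered libraries had correlations of -0.0152 and -0.0028 over 8865 loci. The deviations of the fresh libraries mirror each other, so each control library has equal and opposite correlations with them. These values therefore cannot show whether the numbers pair the libraries.

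Of 1068 called loci, 246 were called over all deposited peaks, and 817 of 1040 tested under another order of ties, a setting chosen after seeing the data, as was equal weighting of the groups. With only the 2 compared groups in the fit, 381 loci rose and 404 fell, and 453 of the 1068 calls remained. For tiles that fit gave 550 and 284, and 620 of 1176 calls remained. Of 74 named loci that passed, 37 lost the call over all deposited peaks and 28 with only the 2 compared groups in the fit. The call was kept by 38 in every fit with 1 library left out in which they were tested, and by 21 under every alternative in which they were tested. Wwtr1 turned to -0.57 and Lifr to 0.13 over the 20000 strongest peaks. Among loci that did not pass, Kitl turned to -0.039 over all deposited peaks and ran from -0.47 to 1.30 with 1 library left out. Pdgfra turned to 0.12 over all deposited peaks, 0.079 with flow cell as a covariate and 0.00037 with chromosome totals equalised, and ran from -0.49 to 0.44 with 1 library left out.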
